A study of Mus musculus with 6 samples.

Results

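Type I interferon response genes are the genes that a cell turns on when interferon alpha or beta reaches it, and 40 of them were followed by symbol among the 49016 gene symbols of the count table. All 40 were found there. They were read in 3 kinds of sorted mouse myeloid cell: blood monocytes, macrophages labelled as intravascular, and microglia, the macrophages of brain tissue. Each kind was taken from wild-type mice (WT) and from mice with the BRAF V600E mutation (VE in the sample names), which leaves the BRAF kinase switched on, and each of the 6 combinations was 1 library of total RNA. The sources used here do not give the strain, the age, the number of animals per library, or the promoter or cell type that carries the mutation, and they list no treatment. The comparisons are between cell types and between mutant and wild-type cells of 1 type.

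Interferon alpha and beta bind a receptor of the chains Ifnar1 and Ifnar2, whose kinases activate the transcription factor Stat2. Stat2 and Irf9 act in a complex that binds the interferon-stimulated response element, a short DNA sequence in front of many response genes, and Irf7 then raises interferon production further. The products of the genes block viral translation and replication (the IFIT, OAS and MX families), tag proteins with the ubiquitin-like Isg15, or sense viral nucleic acid and so prime the next response. Microglia with raised levels of these genes have been described in ageing and in models of neurodegeneration.

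The response element was looked for as GAAA, 2 bases of any kind, and GAAA again on either strand (which reads TTTC, 2 bases and TTTC when it lies on the other strand) in RefSeq promoter windows of build GRCm38.p6, from 250 bases before to 50 bases after a gene's start. Matches may overlap each other, and a gene with several starts counts when any window holds one. Of the 40 genes, 29 had a window, and 16 of these (55.2%) held a match, against 1079 of all 27025 genes with a window (3.99%). A match is a description of letters and not a measured binding site. The 200 bases before the start are shown for 7 genes whose values are described below, with matches in capitals: Isg15, Ifit3 and Ifit3b had the 3 largest ratios between genotypes in monocytes, Ifit1 and Rsad2 were at 3 counts or fewer in 1 library, and Oas3 and Ifi203 differed between cell types.
Isg15 (chr4:156200819-156201018, minus strand): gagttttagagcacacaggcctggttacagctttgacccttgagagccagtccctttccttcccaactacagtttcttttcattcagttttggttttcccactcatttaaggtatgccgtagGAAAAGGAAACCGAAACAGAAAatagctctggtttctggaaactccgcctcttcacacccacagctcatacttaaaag
Ifit1 (chr19:34640689-34640888, plus strand): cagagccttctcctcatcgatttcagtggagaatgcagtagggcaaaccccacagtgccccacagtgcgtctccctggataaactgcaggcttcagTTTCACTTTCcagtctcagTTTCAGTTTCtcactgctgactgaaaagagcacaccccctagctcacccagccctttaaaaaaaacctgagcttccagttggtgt
Ifit3 (chr19:34583329-34583528, plus strand): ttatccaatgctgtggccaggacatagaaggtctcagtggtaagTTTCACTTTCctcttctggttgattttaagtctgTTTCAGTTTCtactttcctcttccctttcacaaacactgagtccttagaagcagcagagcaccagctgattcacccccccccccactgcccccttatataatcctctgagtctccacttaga
Ifit3b (chr19:34607757-34607956, plus strand): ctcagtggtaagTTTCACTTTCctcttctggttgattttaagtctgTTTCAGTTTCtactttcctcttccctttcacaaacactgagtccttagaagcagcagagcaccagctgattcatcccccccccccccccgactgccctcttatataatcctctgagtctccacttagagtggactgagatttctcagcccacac
Rsad2 (chr12:26456453-26456652, minus strand): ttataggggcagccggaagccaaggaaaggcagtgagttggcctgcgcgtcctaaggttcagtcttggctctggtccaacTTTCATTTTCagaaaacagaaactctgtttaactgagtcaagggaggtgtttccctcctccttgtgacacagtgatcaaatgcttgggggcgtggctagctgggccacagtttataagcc
Oas3 (chr5:120777660-120777859, minus strand): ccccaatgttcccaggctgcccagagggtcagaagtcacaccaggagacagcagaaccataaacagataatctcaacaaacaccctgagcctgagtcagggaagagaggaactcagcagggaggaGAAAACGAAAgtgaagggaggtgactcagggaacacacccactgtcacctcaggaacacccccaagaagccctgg
Ifi203 (chr1:173942493-173942692, minus strand): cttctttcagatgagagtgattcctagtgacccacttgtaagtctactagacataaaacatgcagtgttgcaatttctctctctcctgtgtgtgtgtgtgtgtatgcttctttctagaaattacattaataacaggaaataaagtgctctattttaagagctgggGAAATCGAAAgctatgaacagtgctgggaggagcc
In Isg15, 3 overlapping matches formed a single block. Ifit1, Ifit3 and Ifit3b each held 2 separate matches, and in Ifit3 and Ifit3b these began 34 bases apart in both genes. Set at the first match, 218 bases of these promoters were 86.2% identical without gaps. Among the receptor and transcription factor genes, only Stat2 of 5 with a window held a match, and the windows of 13 genes had none, among them Ifit2, Irf7, Oasl2 and Xaf1.

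Depth and cell makeup bear on every value that follows. After lines without a gene symbol were left out, the libraries held 25757886 to 65421671 counts. Values are TMM-scaled CPM, a level relative to all reads of a library, where TMM is edgeR's correction for libraries of unlike composition. The sum of the microglia markers was 40856 CPM in the wild-type and 64816 CPM in the mutant library of microglia and 1298 to 1646 CPM in monocytes. In intravascular macrophages it was 3152 CPM in the wild-type and 14335 CPM in the mutant library, with 12 of 12 markers at least 2-fold higher in the mutant. Classical monocyte markers were highest in the 2 monocyte libraries, at 9212 and 15917 CPM in sum (wild type first). They summed to 567 and 1124 CPM in intravascular macrophages and to 13.8 and 23.0 CPM in microglia. Markers of T and NK cells summed to 5370.4 CPM in the wild-type library of intravascular macrophages, with 14 of 14 at 10 CPM or more, and to 3.20 CPM in the mutant one, where Cd8a and Ncr1 had 0 counts. The same wild-type library held a count for the fewest genes (15121) and had at most 3 counts for 72 genes at 10 CPM or more everywhere else, none of them among the 40; the same count was 0 for each other library. Mutant monocytes carried neutrophil markers at 56688.5 CPM and erythroid markers at 10478 CPM, against 1966 and 217 CPM in wild-type monocytes. Markers of plasmacytoid dendritic cells, the main interferon producers of blood, summed to between 100.2 and 204 CPM in all 6 libraries, with Klk1 at 0 counts in 5 of them. The sums hide a difference between the libraries of intravascular macrophages. Of these 8 markers, 5 reached 10 CPM in the wild-type and 2 in the mutant library, where 3 were at least 2-fold lower and 0 higher. In sorted bulk samples, fewer cells of a type and less RNA per cell cannot be told apart.

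The median of the 40 genes was lowest in microglia. Their median level was 66.4 and 71.2 CPM in the monocyte libraries (wild type first), 41.6 and 60.8 CPM in intravascular macrophages, and 10.5 and 27.2 CPM in microglia. Wild-type microglia held the lowest value of the 6 libraries for 22 of the 40 genes and wild-type intravascular macrophages for 14, whereas a monocyte library held the highest for 23. Per gene length, in the deposited TPM, Ifitm3 was the most abundant of the 40 transcripts in monocytes and intravascular macrophages (25558 and 38824 TPM in wild-type and mutant monocytes), and Ly6e in microglia (631 and 1511 TPM).

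**Figure D1:**
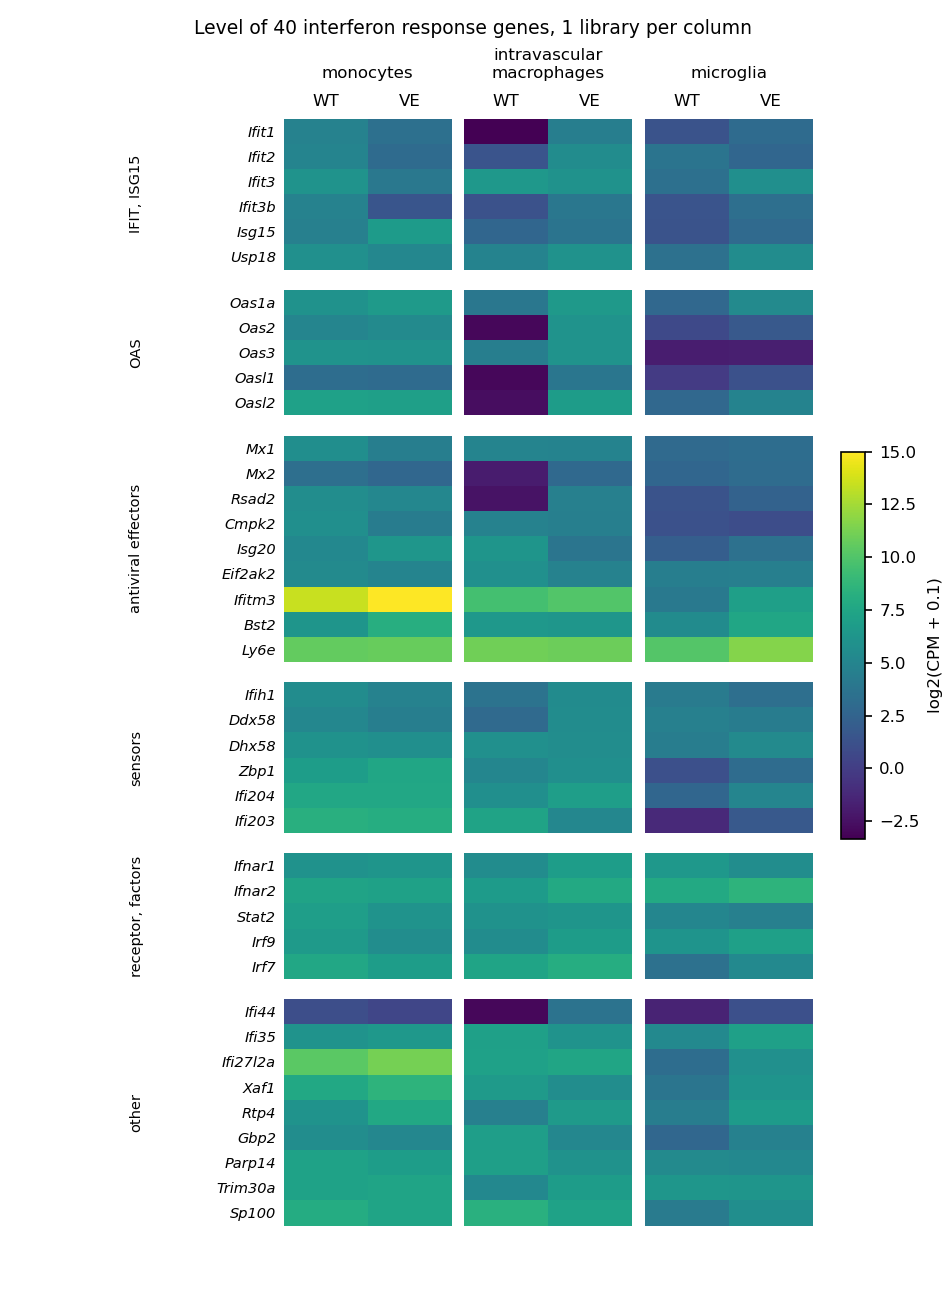
Level of each of the 40 genes, as log2(CPM + 0.1), in the 6 libraries (columns; WT, wild type; VE, BRAF V600E), grouped by role. The wild-type microglia column is the darkest (lowest) for 22 genes, and in wild-type intravascular macrophages 6 genes (Ifit1, Oas2, Oasl1, Oasl2, Rsad2 and Ifi44) had 3 counts or fewer.

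For the cell types, 1 edgeR quasi-likelihood fit took in the 6 libraries and a genotype block, and p-values were adjusted over 17023 genes by Benjamini-Hochberg and read at 0.05. In microglia against monocytes 7 of the 40 genes fell and none rose, where 3.23% of all genes fell and 1.76% rose. Their median log2 fold change was -1.95, against 0.12 over all genes tested. Oas3, an oligoadenylate synthetase that starts RNA decay by RNase L, had the lowest p of the 7. It stood at 67.4 and 63.6 CPM in wild-type and mutant monocytes, 22.2 and 69.0 CPM in intravascular macrophages, and 0.175 and 0.184 CPM in microglia (log2 fold change -8.54, edgeR adjusted p = 0.000757). Both microglia libraries lay far below the other 4, with 8 and 6 counts.

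Ifi203, a nuclear protein of the interferon-inducible p200 family, stood at 297 and 266 CPM in wild-type and mutant monocytes, 155 and 34.8 CPM in intravascular macrophages, and 0.328 and 3.22 CPM in microglia. Its fold change was -7.38 (edgeR adjusted p = 0.00439). Zbp1, a sensor of Z-form nucleic acid that can start necroptosis, had a log2 fold change of -5.05 (edgeR adjusted p = 0.00348), with 112 and 183 CPM in monocytes and 2.08 and 8.54 CPM in microglia. For each of these genes every microglia library was lower than every monocyte library. Ifitm3, a membrane protein that stops viruses from entering, was at 11336 and 31432 CPM in monocytes and 17.1 and 125 CPM in microglia, a fold change of -8.56 (edgeR adjusted p = 0.0325). Ifi27l2a, a small interferon-induced membrane protein, was at 1254 and 2352 CPM against 8.81 and 54.4 CPM (-6.17, edgeR adjusted p = 0.00584). Intravascular macrophages lay between the other cell types for both genes, at 729 and 1030.5 CPM for Ifitm3 and 133 and 174 CPM for Ifi27l2a. Ifi204, a DNA sensor of the p200 family, had a log2 fold change of -3.77 (edgeR adjusted p = 0.0216), and Cmpk2, a nucleotide kinase next to Rsad2 on chromosome 12, of -4.07 (edgeR adjusted p = 0.0479).

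**Figure D2:**
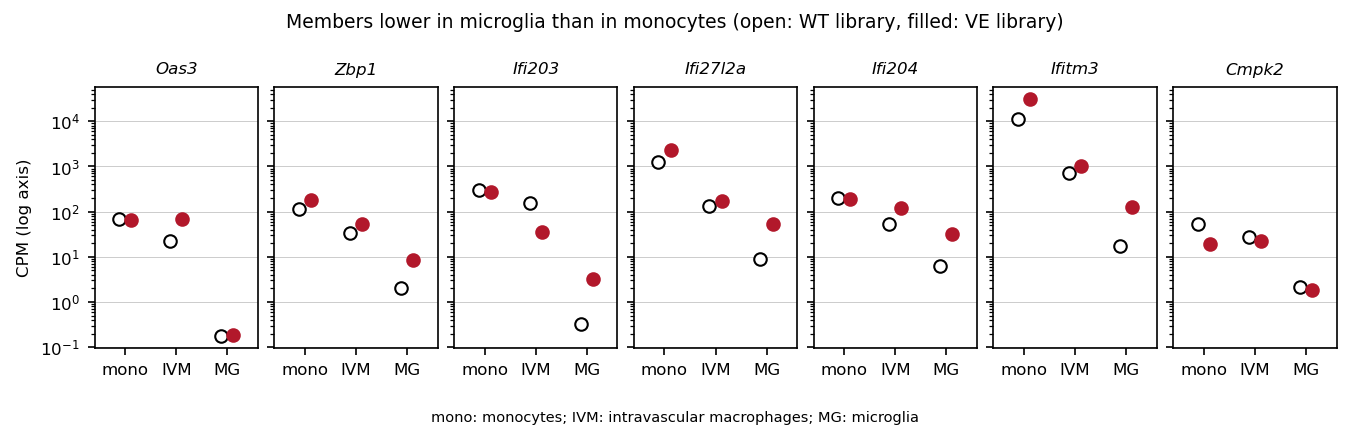
CPM on a log axis of the 7 genes lower in microglia than in monocytes, for each cell type (open, wild-type library; filled, mutant library). In every panel both microglia points lie below both monocyte points, from 0.175 and 0.184 CPM for Oas3 to 17.1 and 125 CPM for Ifitm3.

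The fit has 2 residual degrees of freedom, and a genotype difference that is unlike between cell types counts as spread. The labels name no animals, so the p-values reflect only how far these libraries lie apart, which can be partly technical. Leaving out the wild-type or the mutant library of intravascular macrophages gave 22 and 21 genes in place of 7, while the share of all genes that were lower became 14.3% and 15.1%. Leaving out wild-type microglia gave 3, with 1.63% of all genes (Ifi203, Oas3 and Zbp1 among these 7).

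Intravascular macrophages were above microglia for Oas3 (log2 fold change 7.81, edgeR adjusted p = 0.00257) and Ifi203 (5.84, edgeR adjusted p = 0.0431), 2 of the 40 genes, where 1.25% of all genes were higher and 0.0411% lower. This comparison shares its microglia libraries with the one before. The count was 9 without wild-type intravascular macrophages (3.39% of all genes) and 1 without wild-type microglia (0.788%), which left out Ifi203. Without mutant intravascular macrophages 12 genes were higher and 7 lower, where 11.4% of all genes were higher and 19.2% lower, so the 7 lower, 17.5% of the 40, are near the share of all genes. Between intravascular macrophages and monocytes edgeR called none of the 40 genes in either direction, where 0.27% of all genes were higher and 0.241% lower in the macrophages. At an unadjusted p below 0.05 there were 4, and DESeq2 called 3 lower, with 3.18% of all genes. Without the wild-type and the mutant macrophage library 6 and 11 were lower, with 6.27% and 17.7% of all genes.

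Between genotypes there is 1 library a group, so no difference below has a replicate check and none was tested. A gene is counted as higher or lower in the mutant at a log2 ratio of 1 or more, that is 2-fold, with 10 CPM or more in the higher library. Ratios of single genes carry exact binomial 95% intervals of the counts, which cover counting error only, since reads amplified by PCR are not independent molecules. The 40 genes did not go the same way in the 3 cell types. In mutant monocytes 5 of 40 were higher (12.5%, against 16.7% of all genes at 10 CPM or more) and 6 lower (15%, against 6.33%). In mutant intravascular macrophages 20 were higher (50%, against 26.9%) and 6 lower (15%, against 28.8%). Microglia markers, 12 of 12 of them higher in the same mutant library, moved with these 20 genes. So did 8 of 14 neutrophil markers (131 and 690 CPM in sum, wild type first) and 3 of 8 classical monocyte markers, with 0 of either counted as lower. The part of these markers was not tested. In mutant microglia 16 were higher (40%, against 27.9%) and 1 lower (2.5%, against 25.4%), and 13 more genes stayed below 10 CPM in both microglia libraries. The shares of the 40 genes are over all 40, whereas those of all genes take in only genes at 10 CPM or more. Of the 40, 37 reached 10 CPM in monocytes, 39 in intravascular macrophages and 27 in microglia, so the shares in microglia are understated. The median log2 ratio of the 40 genes, those below 10 CPM included, was -0.22 in monocytes, 1.06 in intravascular macrophages and 1.48 in microglia. Over all genes at 10 CPM or more it was 0.05, -0.13 and 0.12.

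**Figure D3:**
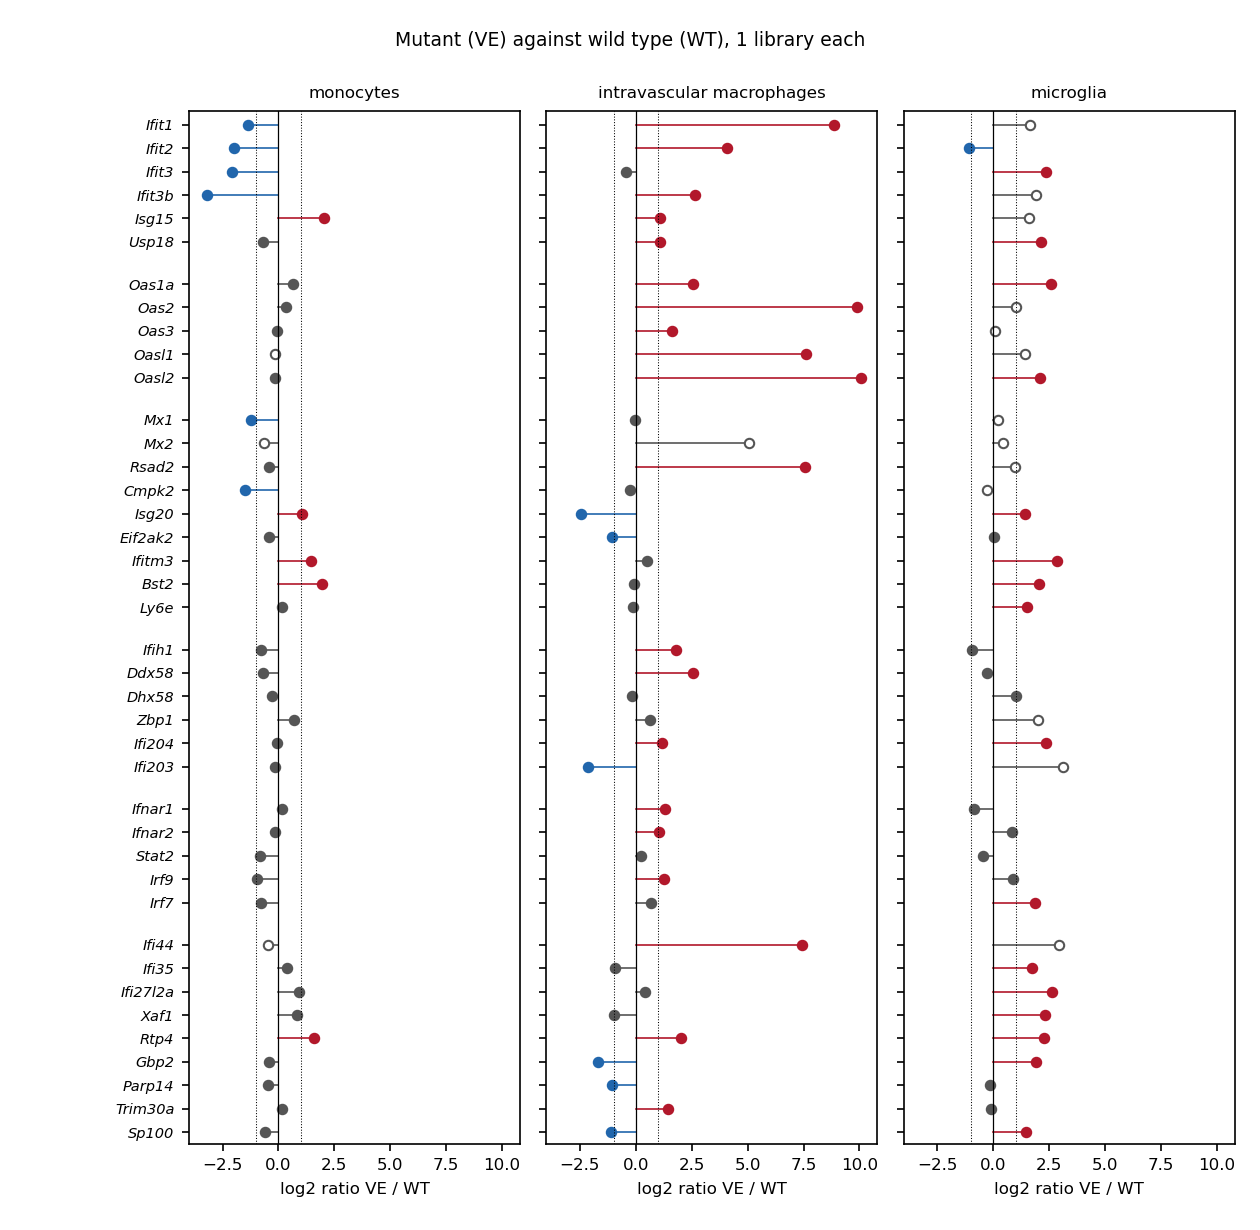
Log2 ratio of mutant to wild type for each of the 40 genes in the 3 cell types, 1 library each; dotted lines mark 2-fold. Red and blue points are genes counted as higher and lower, grey points are not counted, and open points are below 10 CPM in both libraries. Microglia points lie mostly to the right, with 16 red and 1 blue, while monocyte points lie on both sides, with 5 red and 6 blue.

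Another scaling moves these counts together with the rest of the genes. With library size alone the median of all genes at 10 CPM or more became -0.58 in monocytes and -0.62 in microglia, and the counts became 2 higher and 15 lower (8.45% and 26.1% of all genes) in monocytes and 13 higher and 4 lower (6.47% and 41.4%) in microglia. On TPM, where the median of all genes was 1.12 in intravascular macrophages and -0.69 in monocytes, they became 27 higher and 1 lower in intravascular macrophages (53.4% and 11.2% of all genes) and 2 higher and 17 lower in monocytes (8.0% and 31.7%). Adjusting the ratios for transcript length and GC gave 1 higher and 7 lower in monocytes (11.8% and 8.22% of all genes) and 10 higher and 1 lower in microglia (10.9% and 15.6%). Relative to the median of all genes, the median of the 40 genes differed by -0.26 in monocytes, 1.18 in intravascular macrophages and 1.36 in microglia, and with library size alone or on TPM by -0.30 to -0.23, 1.08 to 1.17 and 0.68 to 1.48. The adjustment for length and GC was made only for genes at 10 CPM or more, which are 37, 39 and 27 of the 40. Once adjusted, the median of those genes differed by -0.35, 1.11 and 1.02. Against all genes with no filter on low counts the median of the 40 genes differed by -0.32, 0.46 and 1.54.

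The IFIT proteins bind viral RNA at its end and keep it from being translated, and their genes lie side by side on chromosome 19. Ifit3 stood at 68.9 and 16.3 CPM in wild-type and mutant monocytes, 86.4 and 63.2 CPM in intravascular macrophages, and 10.3 and 53.5 CPM in microglia. Ifit3b, its near copy, stood at 25.9 and 2.78, 2.40 and 15.2, and 2.62 and 9.89 CPM in the same order. The mutant library was the lower one in monocytes for both genes, 4.23-fold for Ifit3 (95% counting interval 3.85 to 4.65) and 9.32-fold for Ifit3b (7.56 to 11.6), and the higher one in microglia. Ifit3 was 5.17-fold higher there (4.67 to 5.74), or 0.89 on the log2 scale once adjusted for length and GC, and Ifit3b stayed below 10 CPM. In intravascular macrophages Ifit3b was 6.33-fold higher (5.10 to 7.95) and Ifit3 1.37-fold lower, but the direction of Ifit3 there turned on TPM (log2 ratio 0.75) and was near 0 once adjusted (-0.06). Their transcripts are 98% identical over 1697 aligned bases, so reads could be split between them or lost in counting, and their separate values are uncertain.

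Ifit1 stood at 26.9 and 10.3 CPM in wild-type and mutant monocytes, 0 and 21.6 CPM in intravascular macrophages, and 2.54 and 7.99 CPM in microglia. It was 2.61-fold lower in mutant monocytes (2.30 to 2.97) and at least 263-fold higher in mutant intravascular macrophages, against a floor of 3 counts in the wild-type library. Ifit2 had 31.4 and 7.99, 2.68 and 45.9, and 13.4 and 6.20 CPM, and was the only one of the 40 genes counted as lower in mutant microglia (2.15-fold, 1.83 to 2.54). It was 3.93-fold lower in mutant monocytes and 17.1-fold higher in mutant intravascular macrophages (14.0 to 21.2). All 4 IFIT genes were thus lower in the mutant monocyte library.

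Isg15, the ubiquitin-like modifier itself, went the other way in monocytes. It stood at 24.4 and 101 CPM in wild-type and mutant monocytes, 6.17 and 13 CPM in intravascular macrophages, and 2.45 and 7.59 CPM in microglia. The mutant library was higher in each cell type, 4.14-fold in monocytes (3.80 to 4.53) and 2.11-fold in intravascular macrophages (1.82 to 2.44), though both microglia values are below 10 CPM. Once adjusted for length and GC, the log2 ratio of 2.05 in monocytes became 0.77 and that of 1.07 in intravascular macrophages became 2.89. Usp18, the protease that removes Isg15 from proteins and dampens the receptor, was at 56.9 and 34.8, 28.9 and 60.8, and 10.6 and 46.6 CPM. It was 4.40-fold higher in mutant microglia (3.97 to 4.88; log2 ratio 0.86 once adjusted).

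**Figure D4:**
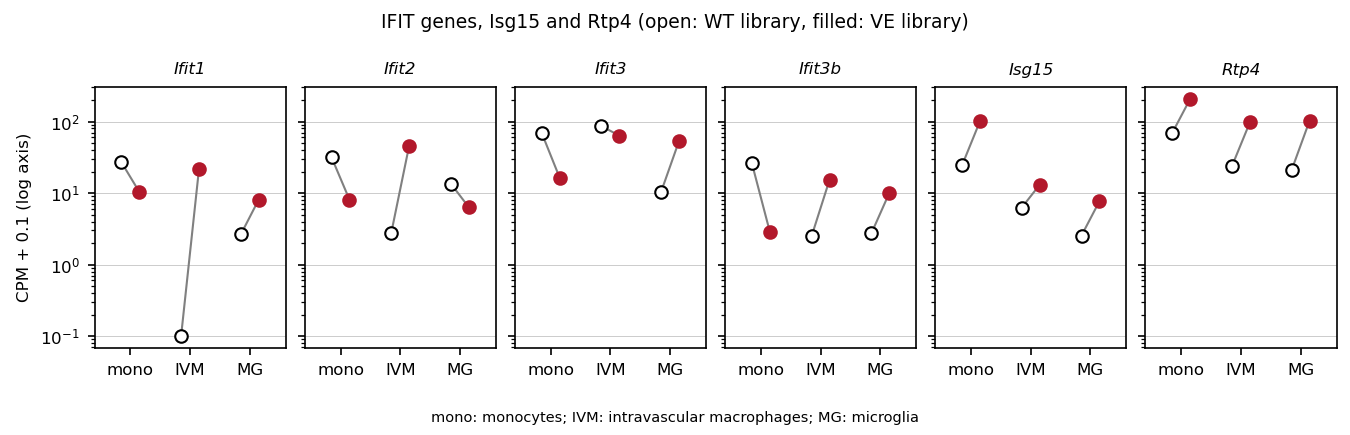
CPM + 0.1 on a log axis of the 4 IFIT genes, Isg15 and Rtp4 in the 3 cell types (open, wild-type library; filled, mutant library; a line joins the 2 libraries of a cell type). For the IFIT genes the mutant point lies below the wild-type point in monocytes, while for Isg15 and Rtp4 it lies above in each cell type.

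Most OAS proteins make the 2′-5′ oligoadenylates that activate RNase L, whereas Oasl1 acts without them. None of the 5 was counted in monocytes, and all 5 were higher in mutant intravascular macrophages. Oas1a stood at 62.9 and 98.1 CPM in wild-type and mutant monocytes, 15.3 and 90.2 CPM in intravascular macrophages and 6.69 and 40.5 CPM in microglia. It was 5.90-fold higher in mutant intravascular macrophages (5.41 to 6.44) and 6.06-fold higher in mutant microglia (5.35 to 6.88). Its transcript is 97.5% identical to that of Oas1g over 1860 aligned bases, so reads of these genes may be mixed. Oasl2 was at 138 and 125 CPM in monocytes, 0.0546 and 108 CPM in intravascular macrophages and 7.0 and 29.8 CPM in microglia, where it was 4.26-fold higher (3.75 to 4.85).

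Oas2 and Oasl1, like Oasl2, had 3 counts or fewer in wild-type intravascular macrophages and in no other library. Oas2 had 32.1 and 41.1, 0.0273 and 69.6, and 1.55 and 3.22 CPM in the same order of libraries, and Oasl1 8.73 and 7.78, 0.0273 and 14.4, and 0.831 and 2.27 CPM. On 1, 1 and 2 wild-type counts the ratios in intravascular macrophages were 2549.7-fold for Oas2 (457 to 100725), 526-fold for Oasl1 (94.2 to 20792) and 1978-fold for Oasl2 (548 to 16339). Together with Ifit1, Rsad2 and Ifi44 they are the 6 genes at 3 counts or fewer in that library. Without these 6, 14 of 34 genes were higher (41.2%) and 6 lower (17.6%) in mutant intravascular macrophages, and the median log2 ratio was 0.57. All genes at 10 CPM or more gave 26.9% and 28.8%, but genes at 3 counts or fewer were not left out of those shares. The 2 sets of shares are thus not on the same footing. The part of the library's missing genes in these ratios was not tested.

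Among the antiviral effectors, Rsad2 (viperin, which makes a nucleotide that ends viral RNA chains) was at 47.8 and 36.1 CPM in wild-type and mutant monocytes, 0.0819 and 24.2 CPM in intravascular macrophages and 2.54 and 4.94 CPM in microglia. Its ratio in intravascular macrophages was 295-fold on 3 wild-type counts (101 to 1433). Cmpk2, its neighbour, was not low in that library: it had 53.4 and 19.1, 27.0 and 22.7, and 2.19 and 1.81 CPM. Cmpk2 was 2.79-fold lower in mutant monocytes (2.54 to 3.06), as was Mx1, a dynamin-like GTPase against influenza viruses, at 51.5 against 21.8 CPM (2.36-fold, 2.16 to 2.59). Mx2 stayed below 10 CPM in all 6 libraries and so was not counted. In intravascular macrophages it had 6 wild-type and 601 mutant counts, 43.0-fold higher in the mutant (19.6 to 118).

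Ifitm3 and Bst2 were higher in mutant monocytes and mutant microglia and within 2-fold in intravascular macrophages. Ifitm3 was 2.77-fold higher in monocytes (2.76 to 2.78) and 7.30-fold in microglia (6.76 to 7.89), on the values given above. Bst2, or tetherin, which holds budding viruses at the cell surface, was at 73.5 and 285 CPM in wild-type and mutant monocytes, 86.2 and 80.2 CPM in intravascular macrophages and 44.4 and 184 CPM in microglia. Its ratios were 3.88-fold (3.68 to 4.08) in monocytes and 4.14-fold (3.93 to 4.35) in microglia, which became 0.77 and 0.74 on the log2 scale once adjusted for length and GC. That of Ifitm3 in monocytes became 0.12. The statement on intravascular macrophages does not hold under these alternatives: the log2 ratios of 0.50 for Ifitm3 and -0.10 for Bst2 became 2.46 and 1.77 once adjusted, and 1.71 and 1.10 on TPM. In the same mutant monocyte library 12 of 14 neutrophil, 6 of 6 erythroid, 4 of 8 classical monocyte and 3 of 14 T and NK cell markers were higher. In each of these lists 0 were counted as lower. These markers moved with Ifitm3, Bst2 and the other genes higher there (Isg15, Isg20 and Rtp4), and their part was not tested.

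Isg20, a nuclease of RNA, was counted in all 3 cell types and in both directions. It had 38.2 and 79.3 CPM in wild-type and mutant monocytes, 74.9 and 13.6 CPM in intravascular macrophages and 4.09 and 10.9 CPM in microglia. It was 5.52-fold lower in mutant intravascular macrophages (5.15 to 5.91) and 2.08-fold and 2.67-fold higher in mutant monocytes and microglia. Once adjusted for length and GC, none of the 3 ratios passed 2-fold, with log2 values of 0.20, -0.98 and 0.26. Ly6e, an entry factor of the Ly6 family, had 1099 to 3148 CPM in all 6 libraries and was 2.86-fold higher in mutant microglia, or 0.89 on the log2 scale with library size alone and 0.99 once adjusted for length and GC, both under 2-fold. Eif2ak2, the kinase PKR that halts translation, was 2.10-fold lower in mutant intravascular macrophages and close to its wild-type level in microglia (22.1 and 22.2 CPM).

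The sensors of cytosolic RNA were higher in mutant intravascular macrophages only in part. Ddx58, the gene of RIG-I, was at 34.9 and 21.7 CPM in wild-type and mutant monocytes, 7.70 and 45.6 CPM in intravascular macrophages and 23.7 and 19.3 CPM in microglia, 5.93-fold higher in the macrophages (5.25 to 6.71). Ifih1, the gene of MDA5, was 3.49-fold higher there (3.17 to 3.85), at 12.6 and 43.8 CPM. Dhx58, the third RNA helicase of the family, was 1.14-fold lower. In monocytes and microglia none of the 3 passed 2-fold by the rule; Dhx58 lay at the threshold in microglia, with a log2 ratio of 1.0.

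The p200 genes sense DNA, and they parted in intravascular macrophages. Ifi204 had 196 and 190.1 CPM in wild-type and mutant monocytes, 52.8 and 118 CPM in intravascular macrophages and 6.27 and 32.5 CPM in microglia, so the mutant library was 2.23-fold and 5.18-fold higher in the last pair of cell types. Ifi203 was 4.44-fold lower in mutant intravascular macrophages (4.25 to 4.64) and below 10 CPM in microglia. Their transcripts are 79.4% identical over 1742 aligned bases.

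The receptor and its transcription factors were read in all 6 libraries at 10 CPM or more. Ifnar1 stood at 65.5 and 74.1 CPM in wild-type and mutant monocytes, 45.1 and 112 CPM in intravascular macrophages and 86.1 and 47.1 CPM in microglia. Ifnar2 had 160.0 and 146, 102 and 210.0, and 208 and 376 CPM in the same order. Both chains were higher in mutant intravascular macrophages, 2.49-fold (2.36 to 2.63) and 2.06-fold (1.99 to 2.13), and neither passed 2-fold in the other cell types. Once adjusted for length and GC the log2 ratio of Ifnar2 in intravascular macrophages was 1.0, just under 2-fold. In microglia the log2 ratio of Ifnar1, -0.87, became -1.49 with library size alone and -1.08 on TPM, both beyond 2-fold lower. Stat2 was within 2-fold in every cell type, at 119.7 and 68.3, 66.0 and 76.7, and 33.4 and 24.1 CPM. That did not hold under other scalings: its log2 ratio was 1.39 on TPM in intravascular macrophages and -1.09 with library size alone in microglia.

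Irf9, the DNA-binding part of the complex, was at 94.8 and 49.0 CPM in wild-type and mutant monocytes, 44.8 and 106 CPM in intravascular macrophages and 71.7 and 132 CPM in microglia. It was 2.37-fold higher in mutant intravascular macrophages (2.25 to 2.5) and 1.94-fold lower in mutant monocytes. Irf7, which amplifies interferon production, had 191 and 112, 163 and 259, and 10.7 and 38.5 CPM, and was 3.61-fold higher in mutant microglia (3.24 to 4.01). In mutant monocytes 4 of these 5 genes were below wild type and none passed 2-fold. With library size alone the log2 ratios of Stat2, Irf9 and Irf7 in monocytes became -1.40, -1.54 and -1.37. On TPM they became -1.60, -1.70 and -1.61, so all 3 genes were beyond 2-fold lower under either scaling. The median of all genes at 10 CPM or more was then -0.58 and -0.69.

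Rtp4, a chaperone of membrane receptors that is induced by interferon, was the only one of the 40 genes counted as higher in all 3 cell types. It stood at 69.3 and 207 CPM in wild-type and mutant monocytes, 23.8 and 97.4 CPM in intravascular macrophages and 21.0 and 103 CPM in microglia. The ratios were 2.99-fold (2.83 to 3.15), 4.10-fold (3.82 to 4.40) and 4.89-fold (4.55 to 5.25). With library size alone the monocyte ratio was 0.99 on the log2 scale, and once adjusted for length and GC the microglia ratio was 0.98, each just under 2-fold.

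The other genes of the response were mostly higher in mutant microglia. Ifi27l2a was 6.17-fold higher there (5.54 to 6.90), on the values given above, and in intravascular macrophages its log2 ratio of 0.39 became 3.01 once adjusted for length and GC. Xaf1, which antagonises an inhibitor of apoptosis, had 206 and 368 CPM in wild-type and mutant monocytes, 95.3 and 48.3 CPM in intravascular macrophages and 14.2 and 70.1 CPM in microglia, where it was 4.95-fold higher (4.53 to 5.41). Ifi44 was at 1.91 and 1.35, 0.0273 and 12.5, and 0.241 and 2.15 CPM, and passed 10 CPM in mutant intravascular macrophages alone. Gbp2, a guanylate-binding protein that attacks pathogen vacuoles, had 47.8 and 35.3, 117 and 36.3, and 6.43 and 24.6 CPM. It was 3.21-fold lower in mutant intravascular macrophages (3.07 to 3.37) and 3.83-fold higher in mutant microglia (3.34 to 4.39).

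Sp100, a protein of nuclear bodies, went the same ways as Gbp2, 2.16-fold lower in mutant intravascular macrophages and 2.72-fold higher in mutant microglia. Parp14, an ADP-ribosyltransferase, was 2.07-fold lower in mutant intravascular macrophages, and Trim30a, a TRIM family member, 2.74-fold higher. Ifi35, a partner of Nmi, was 3.31-fold higher in mutant microglia, and its log2 ratio of 1.72 became 0.36 once adjusted for length and GC. In microglia that of Sp100, 1.44, became 0.82 with library size alone. The 6 genes lower in mutant intravascular macrophages were Isg20, Eif2ak2, Ifi203, Gbp2, Parp14 and Sp100. On TPM 3 of them turned, with log2 ratios of 0.13 for Eif2ak2, 0.16 for Parp14 and 0.10 for Sp100, and Gbp2 (-0.46) and Ifi203 (-0.90) were within 2-fold. T and NK cell markers, at 5370.4 CPM in the wild-type and 3.20 CPM in the mutant library, moved with them, and their part was not tested.

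Other genes of the pathway were read from 3 lists. Among 41 further interferon-stimulated genes, the mutant library was at least 2-fold higher for 4 and lower for 6 in monocytes, 14 and 7 in intravascular macrophages, and 12 and 6 in microglia. These are 9.76% and 14.6%, 34.1% and 17.1%, and 29.3% and 14.6% of the list. The shares of all genes given above take in only genes at 10 CPM or more. Of the list, 37 genes reached 10 CPM in monocytes, 40 in intravascular macrophages and 28 in microglia. Its shares in microglia are thus understated beside the 27.9% and 25.4% of all genes. The list had median log2 ratios of -0.18, 0.44 and 0.80. The largest ratios were those of Ms4a4c, a membrane protein of the MS4A family (208-fold higher in mutant intravascular macrophages, 148 to 302), and Ifitm1, a relative of Ifitm3 (77.8-fold higher in mutant monocytes, 69.1 to 87.9). Oas1g was 52.5-fold and Herc6, an Isg15 ligase, 26.8-fold higher in mutant intravascular macrophages.

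Of 25 genes for induction of interferon and for signalling, none was higher and 4 lower in the mutant monocyte library, 6 and 4 in intravascular macrophages, and 5 and 7 in microglia. Over all 25 genes, 0%, 24% and 20% were higher in this order, where all genes at 10 CPM or more gave 16.7%, 26.9% and 27.9%. The shares lower were 16%, 16% and 28%, against 6.33%, 28.8% and 25.4%. Of the list, 21 genes reached 10 CPM in monocytes, 22 in intravascular macrophages and 20 in microglia. In intravascular macrophages and microglia the shares higher are near those of all genes, as is the share lower in microglia. The list's median log2 ratios were -0.41, 0.05 and -0.00159. Tlr7, the endosomal receptor for single-stranded RNA, was at 8.17 CPM in the wild-type and 173 CPM in the mutant library of intravascular macrophages, 21.1-fold higher (18.8 to 23.8), and Mavs, the adaptor of RIG-I and MDA5, 12.2-fold higher (10.6 to 14.2). Socs1, a feedback inhibitor of the receptor kinases, was 25-fold lower (21.3 to 29.5). Irf1, which interferon gamma induces as well, was at 83.5 and 375 CPM in microglia, 4.49-fold higher (4.33 to 4.66). In the cell type tests, edgeR called 8 of 40 measured further interferon-stimulated genes (20%) lower in microglia than in monocytes and 0 higher. Of 24 induction and signalling genes it called 1 in each direction (4.17%). Of all genes 3.23% were lower and 1.76% higher, so the 1 of 24 is near these shares. The further genes and the induction and signalling genes had a promoter match in 20 of 39 genes (51.3%) and 2 of 21 genes (9.52%).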

How the data were processed

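RNA of 6 libraries was sequenced after column extraction of total RNA, full-length cDNA synthesis with the SMART-Seq HT kit and Nextera XT library preparation, per the labels' protocols. The deposited tables hold raw read counts per gene symbol and TPM, in which the authors divided by gene length and scaled each library to the same sum, per the file headers and the values. The tools listed are STAR 2.5.2b, Subread 1.5.2, Trimmomatic 0.37 and bcl2fastq 2.20, for build mm10, per the submitters' processing notes; what each did, the annotation and whether strand was used the sources used here do not say, so reads of overlapping antisense genes cannot be told apart.

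Of 49315 lines, 176 without a name (at most 0.0166% of a library) and 26 with a date as symbol (at most 0.237%) were left out, and 94 repeated symbols were summed. Counts were scaled by TMM in edgeR 4.0.16 (R 4.3.3). Log2 ratios of mutant to wild type used a prior count of 2; cell types were tested with edgeR's quasi-likelihood test after filterByExpr by cell type, checked on simulated counts. Alternatives were library size alone, DESeq2 1.42.0, TPM as log2(TPM + 1), prior counts of 0.5 and 5, other count filters, a smooth adjustment for length and GC of GENCODE M21 transcripts (mgcv 1.9.3), no genotype block and leaving out each library. Genes with a 4-fold ratio at 10 CPM in a cell type, and 5 receptor and factor genes, are given in every library; of each further list, at most 4 genes with the largest ratio. Genes named beyond this, such as Ly6e, Gbp2 and Sp100, were chosen after their values were seen. The 40 genes and the lists were chosen with earlier results of these data known.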

Additional observations from a re-analysis of the deposited data

Results flagged for a closer look

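Of the 40 genes, 7 were counted as at least 2-fold higher in the mutant in one cell type and at least 2-fold lower in another; with 1 library a group, none of these differences between cell types was tested. Ifit1 had a log2 ratio of -1.38 in monocytes and 8.88 in intravascular macrophages, the latter on 0 wild-type counts. Ifit2 had -1.97 in monocytes, 4.08 in intravascular macrophages and -1.10 in microglia. Ifit3 had -2.08 in monocytes and 2.37 in microglia, and Ifit3b -3.20 in monocytes and 2.64 in intravascular macrophages. Isg20 had 1.05 in monocytes, -2.46 in intravascular macrophages and 1.41 in microglia. Gbp2 had -1.68 in intravascular macrophages and 1.93 in microglia, and Sp100 -1.11 and 1.44.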

How the results depend on the processing

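The counts of 2-fold genes kept within 1.5 times of the reported ones with DESeq2 size factors and with prior counts of 0.5 and 5. In monocytes, where 5 genes were higher and 6 lower, library size alone gave 2 and 15, TPM 2 and 17, and an adjustment for length and GC 1 higher. In microglia, library size alone gave 4 lower and that adjustment 10 higher, in place of 1 and 16. In intravascular macrophages, TPM gave 1 lower in place of 6. On TPM the log2 ratios of Eif2ak2 (0.13), Parp14 (0.16) and Sp100 (0.10) in intravascular macrophages turned. A choice made after seeing the data, leaving out 6 genes at 3 counts or fewer, gave 14 of 34 higher there (41.2%). The share of all genes, 26.9%, was counted without leaving such genes out. The cause of these shifts was not tested.

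In the cell type tests, 7 genes lower in microglia than in monocytes became 11 with DESeq2 (9.09% of all genes, in place of 3.23%) and 14 without a filter on low counts (3.30%). Genes higher in intravascular macrophages than in microglia, 2 by edgeR, were 1 with library size alone, with DESeq2 size factors or with no genotype block, 6 with DESeq2 (4.15% of all genes, in place of 1.25%) and 4 without the filter (1.63%). Genes lower in intravascular macrophages than in monocytes, 0 by edgeR, were 3 with DESeq2 and 1 without the filter (0.892% of all genes, in place of 0.241%). Leaving out each library in turn gave 3 to 22 for the first count, 1 to 12 for the second and 0 to 11 for the third, and 0 to 7 genes lower in intravascular macrophages than in microglia. No paired analysis was possible because the labels give no replicate numbers; the cell type fit has genotype as its block, which sets libraries of 1 genotype side by side without a label that ties them to the same animals. Depth limits the genes at 3 counts or fewer, whose ratios are bounds or have wide intervals.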

Other observations

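Ifnb1, the gene of interferon beta, chosen after its values were seen, had 0 counts in both monocyte libraries, 0 and 24 counts in intravascular macrophages (wild type first), and 0 and 48 counts in microglia, 1.47 CPM in the mutant library. Ifng, the gene of interferon gamma, which T and NK cells make, was at 44.9 CPM in wild-type intravascular macrophages and had 2 counts in the mutant ones, 1917-fold lower (530 to 15844). Of 15 genes listed for interferon gamma and its response, 7 were at least 2-fold lower (46.7%, against 28.8% of all genes) and 2 higher (13.3%, against 26.9%) in mutant intravascular macrophages. Ifng itself is in this list and is counted among the 7. Among those lower were Gbp5, a guanylate-binding protein (6.61-fold lower, 5.81 to 7.53), its relative Gbp4 (6.16-fold lower, 5.78 to 6.56), and Tgtp1, a GTPase that interferon gamma induces (9.77-fold lower, 8.46 to 11.3). In mutant microglia 6 of the 15 were higher (40%, against 27.9% of all genes) and 1 lower (6.67%, against 25.4%). Only 8 of the 15 reached 10 CPM there, so these shares are understated beside those of all genes at 10 CPM or more. T and NK cell markers moved with this list in intravascular macrophages, and their part was not tested.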
